A study of Mus musculus with 19 samples.

Results

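Messenger RNA was compared between 3 libraries of proliferating mouse myoblasts labelled Glud1KO and 3 labelled WT. These 6 libraries are those of the myoblast stage among the 19 libraries of the series, and they were chosen by their sample titles. The cells were primary myoblasts isolated from the hind-limb muscles of mice, kept in growth medium for 24 h. The other 13 libraries come from the same kind of culture as differentiated myotubes at 48 h (3 WT, 2 Glud1KO) and as fused myotubes at 72 h (4 of each), and they enter here only where an effect is compared between stages. The labels name the genotypes WT and Glud1KO, the design text calls the latter Glud1 deficient, and neither gives the allele, a Cre driver, a strain, an age or a treatment. In the deposited file names both WT and Glud1KO libraries carry KO, the latter followed by a T whose meaning is not stated. Replicates are numbered as biological, without saying whether a number is an animal or a culture, so the p-values measure the spread between these libraries.

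Glud1 encodes glutamate dehydrogenase, a mitochondrial enzyme that releases ammonia from glutamate and passes its carbon to the TCA cycle as 2-oxoglutarate. Myoblasts are the dividing descendants of muscle stem cells (satellite cells). They leave the cell cycle under the control of the transcription factors MYOD1, myogenin and the MEF2 family, switch on contractile genes, and fuse into multinucleate myotubes. Glutamate also feeds the synthesis of other amino acids, and a shortage of amino acids is sensed by a pathway that acts through the transcription factor ATF4. By the title of the series, the study concerned how GLUD1 and mitochondrial glutamate bear on the fate of muscle stem cells, so the genes of these pathways are described in turn.

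The libraries held 19984984 to 26169264 estimated counts in WT and 26317419 to 30742634 in Glud1KO-labelled myoblasts. The common biological coefficient of variation over the 13325 genes tested was 3.20%, and the first principal component, with 43.6% of the variance, placed the WT libraries between -19.4 and -15.7 and the Glud1KO-labelled ones between 16.1 and 19.1. The myoblast label was met by the markers. The summed level of 9 myoblast genes was 4505 to 4653 CPM (counts scaled to library size, with TMM factors) in WT and 4134 to 4260 CPM in Glud1KO-labelled libraries, with Pax7, Myod1 and Myf5 all present. Endothelial markers summed to at most 1.46 CPM, leukocyte markers to at most 2.43 CPM and adipocyte markers to at most 0.151 CPM in any of the 6 libraries. Tenocyte markers summed to 34.5 to 37.4 CPM in WT and 38.7 to 39.97 CPM in Glud1KO-labelled libraries, with 0 called. Schwann cell markers summed to 4.32 to 5.25 CPM in WT and 3.14 to 4.25 CPM in Glud1KO-labelled libraries, with Mbp called lower. Smooth muscle and pericyte markers summed to 1223 to 1264 CPM in WT and 1234 to 1253 CPM in Glud1KO-labelled libraries, nearly all of it Acta2, which was not called, while Rgs5, Notch3 and Cspg4 were lower by log2 values of -0.27, -0.27 and -0.87. The calls of Notch3, Cspg4 and Mbp were lost without Glud1KO-labelled replicate 1, those of Notch3 and Mbp also without WT replicate 3 or Glud1KO-labelled replicate 2. The part of these markers in the results was not tested.

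Summed over its transcripts, Glud1 RNA was alike in range under both labels. Glud1 (ENSMUSG00000021794.16, GRCm38 chromosome 14, 34310727 to 34345265, plus strand) was at 223, 222 and 213 CPM in the WT libraries, against 217, 214 and 214 CPM in the Glud1KO-labelled ones, so the groups overlapped. WT averaged 219 ± 5.51 CPM (SD, n = 3), Glud1KO-labelled libraries averaged 215 ± 1.78 CPM (SD, n = 3), and p was 0.4 in an exact permutation test (two-sided; 3 against 3 libraries cannot go below 0.1). On the log2 scale the difference was -0.03 ± 0.030 (SE; edgeR adjusted p 0.558). Every adjusted p given here comes from the quasi-likelihood test of edgeR, adjusted by Benjamini-Hochberg over all genes tested, and a gene is called at an adjusted p under 0.05. With an offset for the effective transcript lengths in the files it was -0.27, with an edgeR adjusted p of 0.00435 in a range of 0.00435 to 0.849 over the alternatives. The directions that follow therefore rest on the labels, and "Glud1KO-labelled" is written throughout.

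The estimated counts of Glud1 were divided among its transcripts in different shares under the labels. The full-length transcript ENSMUST00000022322 (3390 nt, 13 exons) was at 88.6, 89.9 and 85.4 TPM in WT and at 91.8, 89.4 and 92.1 TPM in Glud1KO-labelled libraries, which overlap. The short transcript ENSMUST00000159784, which lies within exons 6 to 10 and is annotated as a processed transcript without a coding sequence, took 11.5% ± 0.397 (SD, n = 3) of the Glud1 counts in WT and 6.14% ± 0.257 (SD, n = 3) in Glud1KO-labelled libraries, with an exact permutation p of 0.1, the smallest possible. A further processed transcript, ENSMUST00000161593 (655 nt, exons 7 to 11), was listed at 0 in the 3 WT libraries and at 24.99, 66.46 and 40.24 estimated counts in the Glud1KO-labelled ones. Both short transcripts were singled out after their values were seen. They lie along exons of the full-length transcript, so how the reads divide among them is uncertain. Counts per exon were not analysed here.

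**Figure D1:**
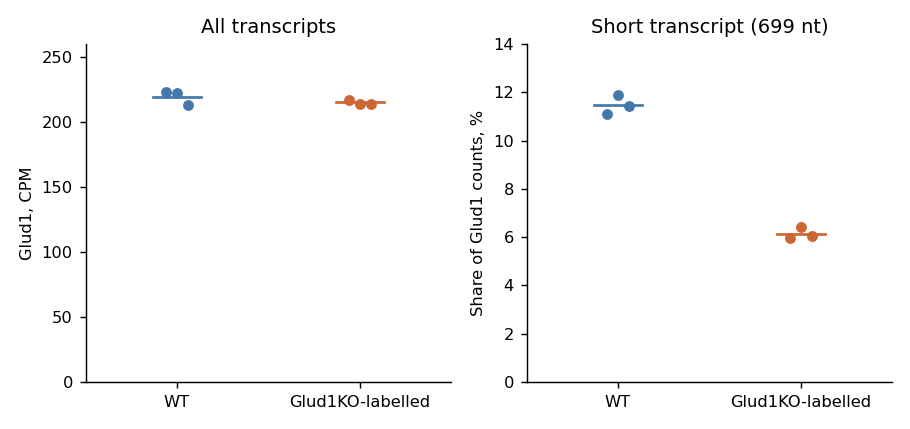
Glud1 in each library of WT and Glud1KO-labelled myoblasts. The left panel plots total Glud1 in CPM and the right panel the share of Glud1 counts, in percent, given to the short transcript ENSMUST00000159784; points are libraries and lines are means. Total levels overlap at 213 to 223 CPM, while the share lies at 11.1% to 11.9% in WT and 5.96% to 6.44% in Glud1KO-labelled libraries.

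Between the labels, 2625 genes differed, 1121 higher and 1504 lower in Glud1KO-labelled myoblasts. Most differences were small, with a median absolute log2 fold change of 0.21 among called genes and of 0.092 among all genes tested. The median signed log2 fold change of all genes tested, which the scaling holds near 0, was 0.003. Changes of at least 2-fold were made up of 25 rises and 100 falls. Of all tested genes 35.5% had groups that did not overlap, and 2548 of the 2625 called genes were among them. The count of calls was 789 with the effective length offset, 5.92% of the genes tested, with 28.8% of these calls higher (against 42.7%). It was 1747 in the DESeq2 test (13.1%), 1747 when all 19 libraries were fitted together (11.6%) and 1735 without WT replicate 3 (12.8%). List counts given below for these settings are to be read against these shares.

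Some of the largest falls were in genes at or near the floor in the Glud1KO-labelled libraries. Pgr, the progesterone receptor gene (ENSMUSG00000031870.16, chromosome 9, 8899833 to 8968611), was at 4.53, 3.87 and 4.52 CPM in WT libraries, against 0, 0 and 0.0376 CPM in Glud1KO-labelled ones. Counted against a floor of 3 counts per library it was at least 39.8-fold lower (edgeR adjusted p 2.62e-10). Dbh, which encodes dopamine beta-hydroxylase of noradrenaline synthesis, went from 0.979, 1.26 and 0.811 CPM to 0.0327, 0 and 0.0376 CPM, at least 9.39-fold lower (edgeR adjusted p 4.36e-06). Greb1, a gene known for its induction by estrogen (ENSMUSG00000036523.16, chromosome 12, 16670615 to 16800886), was well above the floor in both groups. It was at 39.7, 45.1 and 45.8 CPM in WT, against 4.22, 4.81 and 4.89 CPM in Glud1KO-labelled libraries, on the log2 scale -3.23 ± 0.077 (SE, edgeR adjusted p 1.34e-14). Tmem86a, which encodes a lysoplasmalogenase, fell from 20.7, 20.6 and 21.7 CPM to 1.90, 1.63 and 1.96 CPM. Cgnl1, which encodes the junction protein paracingulin, fell from 37.1 ± 0.410 to 4.23 ± 0.866 CPM (SD, n = 3 each). Kprp, Cyp11b1 and Samd5 had log2 fold changes of -4.49, -3.63 and -2.91, with no overlap between the groups. The second gene model under the symbol Chtf8 (ENSMUSG00000117748.1) also belongs to the 10 largest falls, but its WT libraries stood at 1.67, 18.4 and 12.0 CPM, it shares reads with the other Chtf8 model, and its call was lost with the effective length offset.

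The largest rises were smaller. Prl2c3, a proliferin gene of the prolactin family, was at 27.0, 27.5 and 29.1 CPM in WT, against 53.7, 48.1 and 51.5 CPM in Glud1KO-labelled libraries, on the log2 scale 0.88 ± 0.051 (SE, edgeR adjusted p 2.49e-09). Its close paralogs can exchange estimated counts with it, so the member of the family is uncertain. Ptgs2, the inducible cyclooxygenase, rose from 88.8, 90.02 and 79.7 CPM to 137, 129 and 126 CPM, by 0.60 ± 0.044 on the log2 scale (edgeR adjusted p 3.66e-08). Tnc, which encodes the matrix protein tenascin C, rose from 285, 316 and 332 CPM to 448, 425 and 401 CPM, by 0.45 ± 0.048 (edgeR adjusted p 4.46e-06). Plk2 and Sgk1, genes of 2 stress-responsive kinases, rose by 0.40 and 0.38. These 4 are among the largest rises of genes with a mean of at least 50 CPM. Apart from Prl2c3, the 10 largest log2 rises that passed the naming rule (separate groups, informative symbols, a mean of at least 1 CPM in Glud1KO-labelled libraries) were in genes of at most 4.08 CPM on average there. Npas4, a neuronal activity factor, rose from 0.340 ± 0.0952 to 1.00 ± 0.0903 CPM and Cpa4 from 0.496 ± 0.140 to 1.30 ± 0.212 CPM (SD, n = 3 each). Usp43 and Dleu2 kept their calls in every alternative, and Npas4 and Cpa4 in every alternative except the filter on a mean of 1 CPM, which they did not pass. The calls of Duxbl2, Adam1a, Rhox5 and Tigd3 were each lost in 4 or more of the 15 alternatives, those without WT replicate 1 and without Glud1KO-labelled replicate 2 among them.

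**Figure D2:**
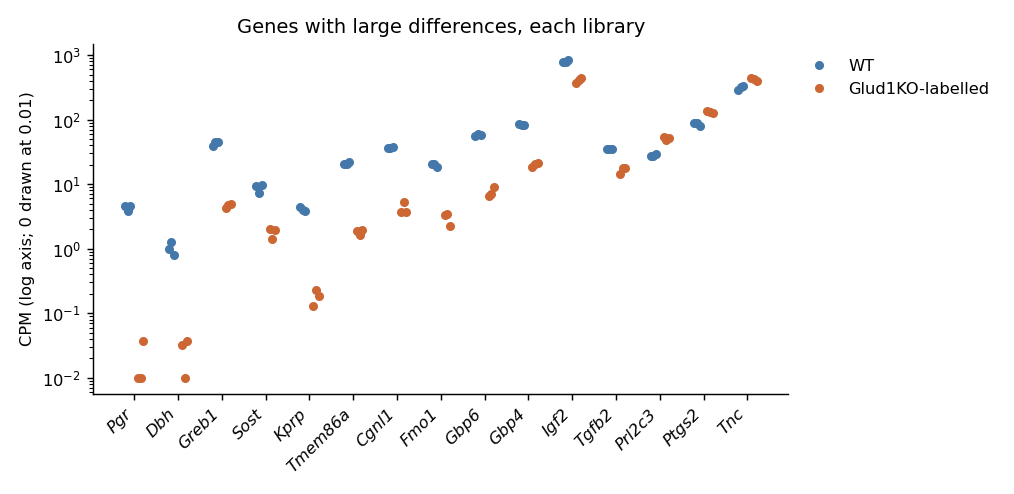
Level of 15 genes with large differences in each of the 6 libraries, in CPM on a log axis, with 0 drawn at 0.01. Blue points are WT and orange points Glud1KO-labelled libraries. Pgr and Dbh drop to the floor, Greb1 drops from about 39.7 to 45.8 down to 4.22 to 4.89 CPM, and Prl2c3, Ptgs2 and Tnc lie higher in all 3 Glud1KO-labelled libraries.

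A block of neighbouring genes on chromosome 5 was lower. It holds genes of the guanylate-binding proteins, GTPases known for their induction by interferon gamma and their action against intracellular microbes. Gbp6 was at 55.3, 60.4 and 57.3 CPM in WT, against 6.44, 7.01 and 8.95 CPM in Glud1KO-labelled libraries, on the log2 scale -2.95 ± 0.077 (SE, edgeR adjusted p 3.15e-14). Gbp4 fell from 83.2 ± 0.790 to 20.1 ± 1.43 CPM and Gbp9 from 138 ± 1.61 to 50.1 ± 2.16 CPM (SD, n = 3 each). Gbp10, Gbp8 and Gbp11 fell by 2.24, 2.19 and 2.51 on the log2 scale. These genes are close paralogs, and the models of Gbp8, Gbp9 and Gbp4 overlap, so how the reads divide among them is uncertain. The 6 genes span 105014150 to 105346472. Within 1 Mb of that span, 20 genes were tested, 12 were lower and 0 higher, a window chosen after the values were seen. Without the 6 genes that prompted it, 6 of 14 were lower, where 11.3% of all genes were. These lower genes include Gm43302 (log2 fold change -2.50), a gene model inside the span that overlaps Gbp10 and Gbp6 and can share their reads. They also include the neighbours described next, whose values had been seen, so the count is a description. Next to the cluster lie the genes of 3 subunits of volume-regulated anion channels, which are no guanylate-binding proteins. Lrrc8b fell from 93.7 ± 1.17 to 59.3 ± 2.08 CPM, and Lrrc8c from 28.4 ± 0.637 to 13.7 ± 1.32 CPM (SD, n = 3 each; log2 fold changes -0.66 and -1.05, edgeR adjusted p 1.06e-09 and 5.37e-09). Lrrc8d, the farthest of the 3 from the cluster, fell by 0.14 (edgeR adjusted p 0.0405), a call lost in 11 of the 15 alternatives, without WT replicate 2 or 3 and without Glud1KO-labelled replicate 1, 2 or 3 among them.

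The list of guanylate-binding proteins and interferon responses held 30 tested genes, of which 9 fell and 2 rose, 36.7% called against 19.7% of all genes (8.41% higher and 11.3% lower). This list, like the others below, was chosen with earlier results of these data known, so its share is a description and not a test. Without the 6 genes of the cluster, 3 of 24 fell and 2 rose, which is 20.8% and near the share of all genes. The proteasome subunit gene Psmb9 fell from 1.37 ± 0.318 to 0.361 ± 0.0796 CPM, and the peptide transporter gene Tap1 from 23.1 ± 1.02 to 14.8 ± 0.616 CPM (SD, n = 3 each). The transcription factor gene Irf1 was at 11.6 ± 0.129 CPM in WT and 12.1 ± 0.896 CPM in Glud1KO-labelled libraries (SD, n = 3 each) and was not called (edgeR adjusted p 0.574). Of the 2 called as higher, Ifi204 lost its call with the effective length offset, and Dhx58, at 0.787 CPM, lost it in 7 alternatives, without WT replicate 1, 2 or 3 and without Glud1KO-labelled replicate 2 or 3 among them.

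Genes of muscle differentiation were lower in the Glud1KO-labelled myoblasts. Among the regulators, Myog, which encodes myogenin and marks entry into differentiation (chromosome 1, 134289989 to 134292548), was at 137, 120 and 138 CPM in WT, against 73.8, 85.1 and 94.9 CPM in Glud1KO-labelled libraries. The groups did not overlap, and the log2 difference was -0.65 ± 0.066 (SE, edgeR adjusted p 2.77e-06). Mef2a, a partner of the myogenic factors, was at 434, 433 and 439 CPM in WT, against 246, 254 and 258 CPM in Glud1KO-labelled libraries, a fall of 0.78 ± 0.030 (edgeR adjusted p 8.22e-12). Mef2c fell from 38.4 ± 2.22 to 28.7 ± 1.81 CPM (SD, n = 3 each), a call lost with the effective length offset.

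The factors of earlier stages did not differ beyond their spread. Pax7, the satellite cell factor, was at 115, 120 and 121 CPM in WT and 118, 122 and 116 CPM in Glud1KO-labelled libraries (log2 fold change 0.00 ± 0.033, SE). Myod1 was at 803, 769 and 830 against 782, 788 and 742 CPM (-0.06 ± 0.036), and Myf5 at 99.9, 94.3 and 95.3 against 98.0, 92.3 and 99.1 CPM (-0.00 ± 0.036). The edgeR adjusted p of the 3 genes was 0.983, 0.296 and 0.989, although Pax7 was called once the trend with length and GC content was removed. Of 35 tested myogenic regulators, 14 were lower and 1 higher (42.9% called, against 19.7% of all genes), with a median log2 fold change of -0.04, and the lower ones included the Notch ligand gene Jag2 (59.7 ± 2.18 to 46.5 ± 2.33 CPM, SD, n = 3 each; call lost with the effective length offset) and the E protein gene Tcf4 (86.7 ± 1.07 to 70.4 ± 0.454 CPM). With the effective length offset 7 were lower and 0 higher, and without Glud1KO-labelled replicate 2 it was 9 lower and 1 higher. The rise of Eya1, 0.17, was lost without WT replicate 1 and without Glud1KO-labelled replicate 1, and turned with the offset.

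Of 46 genes of contraction and fusion, all of them tested, 34 were lower and 1 higher (76.1% called, against 19.7% of all genes), and their median log2 fold change was -0.44. Myh3, the embryonic myosin heavy chain, was at 253, 245 and 270 CPM in WT, against 128, 138 and 137 CPM in Glud1KO-labelled libraries, on the log2 scale -0.93 ± 0.039 (SE, edgeR adjusted p 2.76e-11). The M-band gene Myom1 went from 41.8, 37.7 and 42.4 CPM to 20.8, 20.8 and 24.1 CPM (-0.90 ± 0.062, edgeR adjusted p 1.77e-08). The regulatory light chain Mylpf went from 530, 491 and 547 CPM to 286, 321 and 339 CPM (-0.73 ± 0.050, edgeR adjusted p 1.82e-08). In these 3 genes every Glud1KO-labelled library was below every WT library. The alpha-actin genes Acta1 (-0.79) and Actc1 (-0.61), the giant protein titin gene Ttn (-0.68) and the troponin T gene Tnnt2 (-0.51) fell likewise. Des, the intermediate filament gene already active in myoblasts, fell by 0.34.

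Mymk, which encodes the fusogen myomaker, fell from 71.6 ± 3.99 to 52.2 ± 4.20 CPM (SD, n = 3 each), while Mymx, the gene of its partner myomixer, was at 3.18 ± 0.182 and 3.24 ± 0.690 CPM (edgeR adjusted p 0.937). Chrna1, the acetylcholine receptor alpha subunit, differed by -0.06 ± 0.031 (SE) on the log2 scale (edgeR adjusted p 0.219). The 1 gene of the list that rose was Myh4, a fast adult myosin, from 1.88, 1.21 and 1.85 CPM to 4.35, 3.45 and 3.31 CPM (1.15 ± 0.18, edgeR adjusted p 0.000216). Its neighbours Myh1, Myh2 and Myh8 are close paralogs, so its reads are uncertain. With the effective length offset 24 of the 46 genes were lower, and with single libraries left out 28 to 34. In these bulk cultures, fewer differentiating cells and less RNA per cell cannot be told apart. The summed myoblast markers were lower too (4 of 9 called, all lower, Ncam1 by 0.45 and Des among them), and their part in the result was not tested. The motif CAGCTG, the form of the E-box read by MYOD1 and myogenin, lay in the 250 bases before the start of 51.7% of the 29 lower or higher genes with a promoter in RefSeq, of 44.4% of the 9 not called and of 14.7% of all 27025 genes.

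Genes of the cell cycle moved the other way, by small amounts. Of 41 DNA replication genes, all tested, 27 were higher and 0 lower (65.9% called; of all genes 8.41% were higher and 11.3% lower), with a median log2 fold change of 0.13. Rrm1 and Rrm2 encode the subunits of ribonucleotide reductase, which makes deoxynucleotides. Rrm1 was at 302, 308 and 295 CPM in WT, against 352, 346 and 348 CPM in Glud1KO-labelled libraries (0.21 ± 0.029, edgeR adjusted p 9.44e-05), and Rrm2 went from 569 ± 16.3 to 653 ± 9.25 CPM (SD, n = 3 each). The primase gene Prim1 rose from 45.1, 42.7 and 41.0 CPM to 52.0, 51.6 and 53 CPM (0.28 ± 0.044, edgeR adjusted p 0.000216). Ccne2, the cyclin E2 gene of S phase entry, rose by 0.31, a call lost with the effective length offset.

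Of 32 mitosis genes, all tested, 21 were higher and 0 lower (65.6% called, against 8.41% of all genes higher), with a median of 0.12. Prc1, which bundles the microtubules of the central spindle, was at 215, 211 and 207 CPM in WT, against 243, 244 and 253 CPM in Glud1KO-labelled libraries (0.23 ± 0.030, edgeR adjusted p 4.98e-05). Cdk1, the kinase that starts mitosis, was at 272, 266 and 258 against 310, 299 and 303 CPM (0.20 ± 0.031, edgeR adjusted p 0.00025). Ccna2 and Birc5 rose by 0.21 and 0.20. In all 4 genes the groups did not overlap. Mki67, the proliferation marker, was at 211, 252 and 230 CPM in WT and 249, 247 and 246 CPM in Glud1KO-labelled libraries, which overlap. It was not called (edgeR adjusted p 0.139), and it was called without WT replicate 2, with no filter and with the length and GC trend removed. The replication count was 6 with the effective length offset, 16 in the fit of all 19 libraries and 17 without WT replicate 2, and the mitosis count was 12 in the fit of all 19 libraries and 13 with the offset, with 0 lower genes in each. Of all genes tested, 227 of 13325 were higher with the offset, and 735 of 15123 in the fit of all 19 libraries.

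The sequence TTTGAA, known as the cell cycle genes homology region, was found on either strand in the 250 bases before the start of 43.8% of the 16 higher mitosis genes with a promoter in RefSeq, of 22.2% of the 9 not called and of 18.3% of all 27025 genes. The stretches around it in 3 of the genes that rose show where it lies, in capitals, read 5′ to 3′ on the strand of the gene (RefSeq, GRCm38.p6), at chr7:80294421-80294475 on the plus strand, chr10:69352953-69353008 on the minus strand and chr2:164769875-164769928 on the plus strand, where Ube2c carries the reverse complement.
Prc1: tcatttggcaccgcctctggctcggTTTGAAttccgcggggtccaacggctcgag
Cdk1: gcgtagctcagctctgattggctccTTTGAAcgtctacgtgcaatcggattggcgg
Ube2c: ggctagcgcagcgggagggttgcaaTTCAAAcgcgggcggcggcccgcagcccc

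The E2F-type motif TTTNNCGC lay in 18.2% of the 22 higher replication genes with a promoter, in 4 of the 10 not called and in 4.94% of all genes. A match of either motif is a description of these letters.

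The brakes of the cell cycle and the targets of p53 went both ways. Of 29 tested genes, 8 were higher and 4 lower (41.4% called, against 19.7% of all genes). Cdkn1a, the CDK inhibitor p21 that rises when myoblasts leave the cycle, was at 617, 585 and 600 CPM in WT, against 541, 536 and 530 CPM in Glud1KO-labelled libraries, a fall of 0.17 ± 0.031 (SE, edgeR adjusted p 0.0012). Mdm2, which encodes the ubiquitin ligase that limits p53, rose from 320 ± 15.7 to 371 ± 10.1 CPM, and Pmaip1, a pro-apoptotic BH3 gene, fell from 74.6 ± 3.15 to 59.7 ± 1.22 CPM (SD, n = 3 each). Ccnd1, cyclin D1, was at 1347, 1386 and 1378 against 1334, 1379 and 1314 CPM, with an edgeR adjusted p of 0.571. The count was 4 in all with the effective length offset and 8 without Glud1KO-labelled replicate 1, and the higher genes were 5 without WT replicate 3, 4 without Glud1KO-labelled replicate 1 and 5 without replicate 3.

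**Figure D3:**
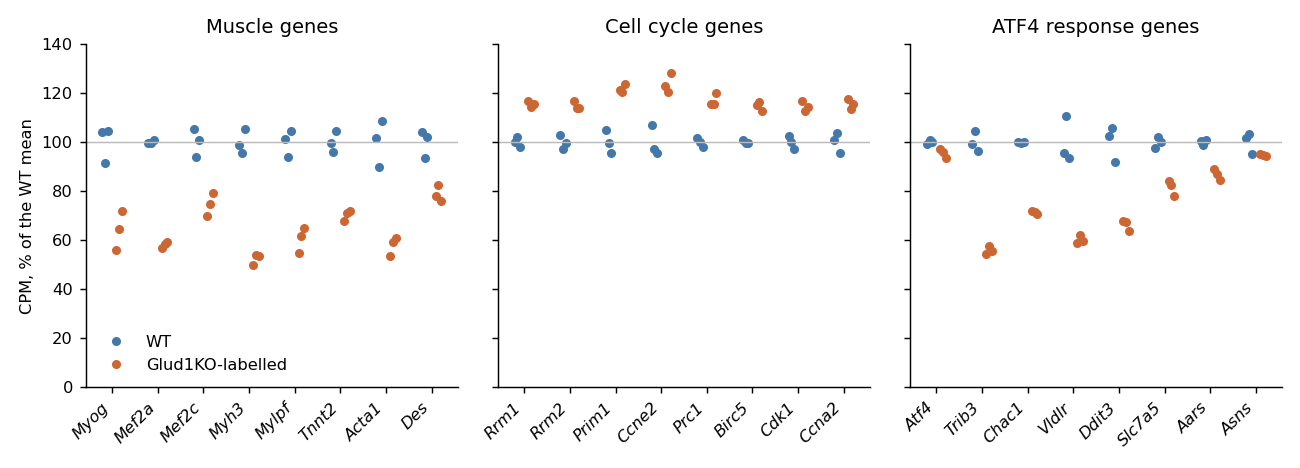
Level of muscle, cell cycle and ATF4 response genes in each library, as percent of the WT mean of the gene. Blue points are WT and orange points Glud1KO-labelled libraries, and the line marks 100%. Myog, Mef2a, Myh3 and Mylpf lie well below the line in Glud1KO-labelled libraries, the cell cycle genes slightly above it, and Trib3, Chac1 and Vldlr below it, while Atf4 and Asns stay close to it.

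Many genes listed for the response that ATF4 drives were lower. ATF4 is translated when amino acids are short or proteins misfold, and it raises genes for amino acid synthesis, uptake and tRNA charging. Of 39 tested genes, 27 were lower and 0 higher (69.2% called, against 19.7% of all genes), with a median log2 fold change of -0.17. Atf4 mRNA itself was at 422, 429 and 425 CPM in WT, against 413, 407 and 397 CPM in Glud1KO-labelled libraries, which do not overlap, but was not called (-0.07 ± 0.029, SE, edgeR adjusted p 0.121).

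Large falls in the list included stress regulators and other genes. Trib3, a pseudokinase that restrains the response, was at 33.2, 34.9 and 32.2 CPM in WT, against 18.2, 19.2 and 18.5 CPM in Glud1KO-labelled libraries (-0.84 ± 0.052, edgeR adjusted p 5.37e-09). Atf3, a stress-induced transcription factor, went from 5.30, 4.48 and 5.33 CPM to 2.85, 2.31 and 2.97 CPM (-0.90 ± 0.13, edgeR adjusted p 0.00016). Chac1, which breaks down glutathione, went from 39.2, 39.1 and 39.3 CPM to 28.1, 28.1 and 27.8 CPM (-0.49 ± 0.044, edgeR adjusted p 5.59e-07). In each of these the groups lay far apart compared with their spread. Vldlr, a lipoprotein receptor gene, fell by 0.73, the stress factor gene Ddit3 (CHOP) by 0.59 and Nupr1 by 0.41.

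Other members serve tRNA charging and amino acid synthesis. Of 13 aminoacyl-tRNA synthetase genes, 8 were lower and 0 higher (of all genes 11.3% were lower), with Aars going from 471, 465 and 473 CPM to 418, 408 and 397 CPM (-0.20 ± 0.030, edgeR adjusted p 0.000159). Pck2, the mitochondrial PEP carboxykinase, fell by 0.18, a call lost with the effective length offset, and Cth, which makes cysteine, fell by 0.52, a call lost there too. The serine synthesis genes Phgdh (0.02 ± 0.031) and Psat1 (log2 fold change -0.00 ± 0.032, SE) were not called, with edgeR adjusted p of 0.699 and 0.979. Asns, which makes asparagine from aspartate with nitrogen from glutamine, was at 255 ± 11.2 and 242 ± 1.19 CPM (-0.08 ± 0.033, edgeR adjusted p 0.111) and was called without WT replicate 3 and with the length and GC trend removed. The count of lower genes was 10 with the effective length offset and 20 to 28 with single libraries left out, with 0 higher genes in each.

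The element that ATF4 binds with C/EBP proteins, TGATGNAA, was found on either strand in the 250 bases before the start of 38.1% of the 21 lower genes with a promoter in RefSeq, of 2 of the 10 not called and of 3.91% of all 27025 genes. The stretches around it in 5 of the genes that fell are shown with the element in capitals, read 5′ to 3′ on the strand of the gene (RefSeq, GRCm38.p6). Each holds the same 8 bases TTGCATCA, the element read from the other strand, and they lie at chr2:119351024-119351081 (plus), chr19:27216795-27216852 (plus), chr7:126625548-126625605 (minus), chr8:111033705-111033762 (plus) and chr1:191183411-191183468 (minus).
Chac1: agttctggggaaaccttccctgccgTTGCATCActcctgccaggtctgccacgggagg
Vldlr: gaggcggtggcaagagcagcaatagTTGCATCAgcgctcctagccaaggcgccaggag
Nupr1: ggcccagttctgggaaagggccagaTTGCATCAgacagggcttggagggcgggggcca
Aars: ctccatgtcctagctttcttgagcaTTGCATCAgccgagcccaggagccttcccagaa
Atf3: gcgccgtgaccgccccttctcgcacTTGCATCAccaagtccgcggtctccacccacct

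Genes of amino acid transporters were also lower in part. Of 22 tested transporter genes, 12 were lower and 0 higher (54.5% called, against 19.7% of all genes), with a median log2 fold change of -0.19. Slc7a5, the light chain of the leucine transporter LAT1, was at 449, 469 and 459 CPM in WT, against 386, 379 and 358 CPM in Glud1KO-labelled libraries (-0.30 ± 0.034, edgeR adjusted p 9.31e-06), and it belongs to the ATF4 list too. Slc6a6, the taurine transporter, went from 557, 573 and 589 CPM to 479, 469 and 472 CPM (-0.28 ± 0.031, edgeR adjusted p 7.7e-06). Slc7a1, which takes up arginine, fell from 194 ± 9.09 to 168 ± 5.61 CPM (SD, n = 3 each). The glutamine transporter genes Slc1a5 (91.2, 95.6 and 91.5 CPM in WT, 95.0, 92.6 and 92.9 CPM in Glud1KO-labelled libraries) and Slc38a1 (231 ± 7.96 and 225 ± 4.69 CPM) were not called, with edgeR adjusted p of 0.828 and 0.531. With the effective length offset 6 of the 22 were lower, and the call of the glycine transporter gene Slc6a9, a fall of 0.42, was lost.

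Genes of glutamate metabolism went both ways. Of 31 tested genes, 5 were higher and 4 lower, 29.0% called against 19.7% of all genes, and the median log2 fold change was -0.00. Gpt2, the mitochondrial alanine aminotransferase, went from 98.4, 95.9 and 98.7 CPM to 83.7, 84.9 and 88.4 CPM (-0.19 ± 0.034, edgeR adjusted p 0.000753). Aldh18a1, which turns glutamate toward proline, fell from 186 ± 0.902 to 168 ± 2.42 CPM, and Pfas, a purine synthesis enzyme that uses glutamine, rose from 82.4 ± 1.88 to 92.6 ± 0.925 CPM (SD, n = 3 each). Of these, Gpt2 lost its call with the effective length offset. The count of 9 fell to 4 with the offset, to 6 in the DESeq2 test and in the fit of all 19 libraries, to 6 without WT replicate 2 or Glud1KO-labelled replicate 1, and to 5 without Glud1KO-labelled replicate 3.

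A list on the handling of NADH between cytosol and mitochondria holds the malate-aspartate shuttle, which uses glutamate, the glycerol-phosphate shuttle, related carriers and lactate dehydrogenases. Of its 14 tested genes 1 was called, 7.14% against 19.7% of all genes. That gene was Got1, the cytosolic aspartate aminotransferase, at 83.4, 81.5 and 79.6 CPM in WT, against 74.0, 73.7 and 72.0 CPM in Glud1KO-labelled libraries (-0.15 ± 0.034, edgeR adjusted p 0.00473), and its call was lost with the effective length offset. Without Glud1KO-labelled replicate 1 the count was 2. Got2, its mitochondrial counterpart, was at 308, 302 and 317 against 301, 309 and 300 CPM. The aspartate-glutamate carriers Slc25a12 (64.8 ± 3.41 and 61.8 ± 0.913 CPM) and Slc25a13 (9.48 ± 0.182 and 8.41 ± 0.220 CPM; SD, n = 3 each) had edgeR adjusted p of 0.255 and 0.15.

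The shares of called genes in central carbon metabolism were only a little above that of all genes. Of 37 tested TCA cycle genes, 4 were higher and 5 lower (24.3% called, against 19.7% of all genes). Idh1, the cytosolic isocitrate dehydrogenase, fell from 53.9 ± 1.23 to 47.2 ± 2.13 CPM (SD, n = 3 each), and Fh1, fumarase, rose by 0.12, a call lost with the effective length offset and without Glud1KO-labelled replicate 3. With the offset 1 of the 37 genes was called, in the DESeq2 test 5, without Glud1KO-labelled replicate 1 it was 5 and without replicate 3 it was 4. Of all genes 5.92% were called with the offset. The higher genes were 0 with the offset and without Glud1KO-labelled replicate 3, and 1 with the replicate block and without Glud1KO-labelled replicate 1. Of 27 tested glycolysis genes, 6 were lower and 1 higher (25.9% called). Pgam2, the muscle form of phosphoglycerate mutase, was at 17.5, 16.4 and 20.2 CPM in WT, against 11.6, 12.1 and 12.5 CPM in Glud1KO-labelled libraries (-0.59 ± 0.078, edgeR adjusted p 4.95e-05), and Pfkm, the muscle phosphofructokinase, fell by 0.25. The other glycolysis calls were in part unsteady, with 3 called under the offset and 4 without Glud1KO-labelled replicate 3. The 1 rise, that of Pfkfb3, was lost in the DESeq2 test, in the fit of all 19 libraries and with the offset. It was lost too without WT replicate 1 and without Glud1KO-labelled replicate 1 or 3.

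Mitochondrially encoded mRNAs were lower in part. The 13 genes made up 1.47% to 1.80% of counts in WT and 1.39% to 1.5% in Glud1KO-labelled libraries. Of the 13, 6 were lower and 0 higher (46.2% called; 11.3% of all genes were lower), with a median log2 fold change of -0.17. mt-Nd5, a subunit of respiratory complex I, was at 847, 1017 and 841 CPM in WT, against 727, 695 and 650 CPM in Glud1KO-labelled libraries (-0.38 ± 0.058, edgeR adjusted p 0.000176). mt-Co1, of cytochrome c oxidase, was at 4787, 5342 and 4299 against 4252, 4043 and 3893 CPM, where the highest WT library was replicate 2. The count rested on the processing and on single libraries. It was 1 in the DESeq2 test, in the fit of all 19 libraries and with the effective length offset, 2 without WT replicate 2 and without Glud1KO-labelled replicate 3, and 12 once the trend with length and GC content was removed. Of 36 nuclear complex I genes, 3 were called as higher, Ndufab1, Ndufb5 and Ndufv2, by 0.12 to 0.13, which is 8.33% against 8.41% of all genes called higher. No call was left in the fit of all 19 libraries, with the offset or without WT replicate 3. There were 5 without WT replicate 1, and 1 in the DESeq2 test and without Glud1KO-labelled replicate 1, 2 or 3. With the length and GC trend removed 1 was higher and 2 lower, and without WT replicate 2 it was 1 and 1.

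Growth factor pathways were lower in part. Of 35 tested genes of ligands, binding proteins, receptors and feedback regulators, 15 were lower, 1 was higher and 19 were not called (45.7% called, against 19.7% of all genes; 10 lower and 0 higher with the effective length offset), with a median log2 fold change of -0.16. Igf2, an autocrine signal of differentiating myoblasts (ENSMUSG00000048583.16, chromosome 7, 142650766 to 142666816), was at 778, 785 and 843 CPM in WT, against 365, 417 and 435 CPM in Glud1KO-labelled libraries (-0.98 ± 0.051, edgeR adjusted p 5.14e-10). Tgfb2, a TGF-beta ligand, went from 35.5, 34.5 and 35.1 CPM to 14.6, 18.0 and 17.8 CPM (-1.07 ± 0.066, edgeR adjusted p 5.61e-09). The binding protein genes Igfbp5 (1027 ± 64.7 to 695 ± 34.5 CPM) and Igfbp2 (54.8 ± 2.25 to 32.4 ± 3.45 CPM; SD, n = 3 each) fell too, as did Mstn, the growth inhibitor myostatin, by 0.80, and Tgfb1 by 0.61. The receptor gene Igf1r was not called (-0.10 ± 0.043, edgeR adjusted p 0.108), and was called without WT replicate 1. Met, the HGF receptor gene, was the 1 that rose, by 0.16, a call lost with the effective length offset.

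Wnt pathway and matrix genes were lower in part. Of 25 tested Wnt pathway genes, 9 were lower and 0 higher (36% called, against 19.7% of all genes). Sost, which encodes the secreted Wnt inhibitor sclerostin, was at 9.22, 7.34 and 9.73 CPM in WT, against 2.03, 1.40 and 1.92 CPM in Glud1KO-labelled libraries (-2.30 ± 0.15, edgeR adjusted p 7.78e-09), and the ligand gene Wnt4 went from 3.27 ± 0.0306 to 1.24 ± 0.329 CPM (SD, n = 3 each). Of 20 tested collagen genes, 8 were lower and 1 higher (45% called; 5 lower and 1 higher without WT replicate 3), with Col8a1 going from 205, 211 and 203 CPM to 135, 136 and 142 CPM (-0.58 ± 0.032, edgeR adjusted p 1.03e-09). The rise of Col7a1 was lost without WT replicate 1 and with the effective length offset. With the offset 4 Wnt pathway genes and 3 collagen genes were called, all lower, and 5 collagen genes were called in the fit of all 19 libraries. Markers of fibroblasts and fibro-adipogenic progenitors, the matrix-producing cells of muscle, summed to 14.6 to 16.0 CPM in WT and to 10.1 to 11.3 CPM in Glud1KO-labelled libraries. Of 9 markers 2 were called, Ly6a and Cd34, both lower, 5 were under 1 CPM and Dpt was at 0, and their part in these results was not tested. The call of Cd34 was lost in 7 alternatives, without WT replicate 1 or 3 and without Glud1KO-labelled replicate 1, 2 or 3 among them.

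Genes of steroid receptors and estrogen responses were lower in part. Of 23 tested receptor, cofactor and estrogen target genes, 8 were lower, Pgr and Greb1 among them, and 1 higher (39.1% called, against 19.7% of all genes). Since the list was chosen with earlier results of these data known, its share is not a test. Esr1, the estrogen receptor alpha gene, was at 24.96, 29.4 and 27.0 CPM in WT, against 32.2, 28.9 and 28.2 CPM in Glud1KO-labelled libraries, which overlap (0.14 ± 0.063, edgeR adjusted p 0.131). The palindromic estrogen response element was in 0 of the 15 promoters of the list found in RefSeq and in 0.067% of all genes. An element this rare, searched only in the 250 bases before the start, would be missed in 15 promoters either way. The count of 0 thus tells nothing about these genes. The count of 9 was 6 in the DESeq2 test and in the fit of all 19 libraries and 4 with the offset.

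Lipid, redox and immediate early genes completed the lists. Of 34 sterol and fatty acid synthesis genes, 7 were higher and 4 lower (32.4% called, against 19.7% of all genes). Idi1, isopentenyl diphosphate isomerase, rose from 45.9 ± 0.925 to 56.8 ± 2.93 CPM, and Scd2, a fatty acid desaturase, fell from 449 ± 6.08 to 375 ± 17.3 CPM (SD, n = 3 each). Of 26 genes of redox defence, 4 were higher and 7 lower (42.3% called), among the latter Nfe2l2, the NRF2 gene, from 172 ± 2.86 to 151 ± 4.84 CPM, and of 22 immediate early genes 7 were lower (31.8% called), Nr4a1 by 0.47 and Atf3 among them. With the offset 3, 2 and 4 genes of these lists were called. The sterol count was 7 in the DESeq2 test, 4 without Glud1KO-labelled replicate 2 and 6 without replicate 3, and the redox count was 7 without WT replicate 2, without Glud1KO-labelled replicate 1 or 2, and 5 without replicate 3 and in the fit of all 19 libraries. The immediate early genes were 4 lower and 0 higher without Glud1KO-labelled replicate 1, and 4 lower and 1 higher without WT replicate 1 or without Glud1KO-labelled replicate 3.

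**Figure D4:**
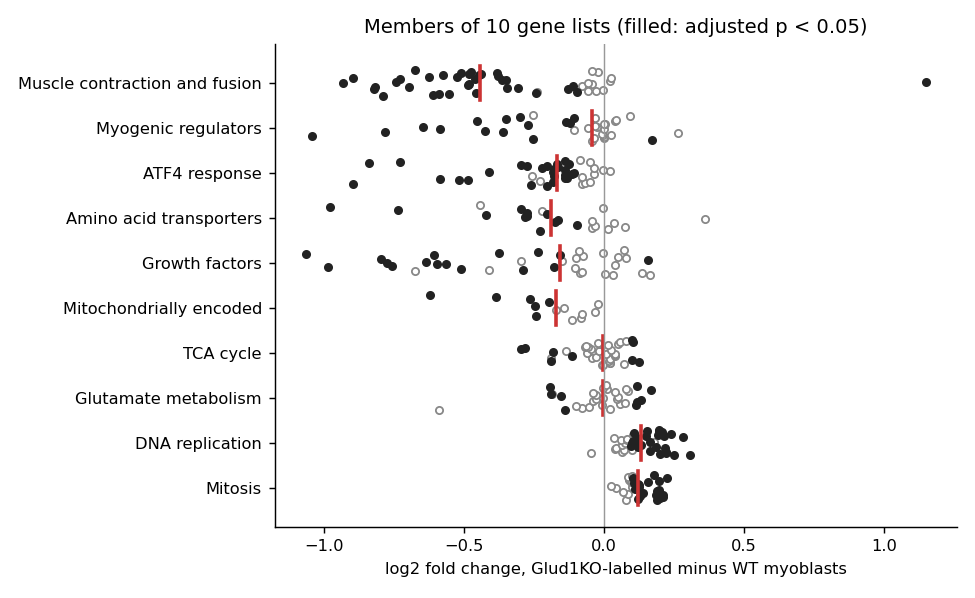
Log2 fold change, Glud1KO-labelled minus WT myoblasts, of the tested members of 10 gene lists. Filled points passed the edgeR threshold, open points did not, and red lines are medians. Muscle contraction and fusion has the lowest median at -0.44, with Myh4 alone far to the right, ATF4 response and amino acid transporters lie at -0.17 and -0.19, and DNA replication and mitosis at 0.13 and 0.12.

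Genes around Glud1 were called about as often as others. Of 53 genes tested within 5 Mb of Glud1 on chromosome 14, 11 were called, which is 20.8% against 19.7% of all genes. They included the Z-disc gene Ldb3 and the cardiac troponin C gene Tnnc1, both members of the muscle list, with log2 fold changes of -0.82 and -0.58.

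The effect of the label in myoblasts was then set against its mean effect in the later stages. This difference was called in 2448 of 15123 genes (16.2%), of which 1431 were positive (58.5%, against 47.3% with DESeq2 size factors). Muscle genes differed in 1 direction, with 29 of the 46 contraction and fusion genes more negative in myoblasts and 1 more positive (6.72% and 9.46% of all genes). In the same 19-library fit, 24 of them were higher and 3 lower at 48 h, with a median log2 fold change of 0.18, and 4 were higher and 7 lower at 72 h, with a median of -0.00. Of all genes 11% were higher and 14.1% lower at 48 h, and 6.32% higher and 6.72% lower at 72 h. Myog had a label effect of -0.01 at 48 h and -0.01 at 72 h, and its difference was -0.62 (edgeR adjusted p 6.39e-06). Myh3 was at -0.01 and -0.16, with a difference of -0.83 (edgeR adjusted p 3.61e-08), and Igf2 at 0.15 and -0.03, with a difference of -1.03 (edgeR adjusted p 6.52e-10). For these genes the lower level was thus seen in myoblasts and not called at the later stages.

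Cell cycle genes differed in the opposite sense. Of the 32 mitosis genes 26 had a positive difference and 0 a negative one, and of the 41 replication genes 14 and 0. At 48 h 26 of the 32 mitosis genes were lower in Glud1KO-labelled libraries, where 14.1% of all genes were, and 0 higher, with a median of -1.37, and at 72 h 1 was higher and 0 lower. Cdk1 was at -0.90 at 48 h (edgeR adjusted p 1.01e-05) and -0.33 at 72 h (0.127), with a difference of 0.82 (edgeR adjusted p 2.47e-06). The difference of Mki67 was 1.75 (edgeR adjusted p 0.00868), and was not called against fused myotubes alone. The 48 h Glud1KO group has 2 libraries.

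Of the 39 ATF4 genes, 21 were lower and 0 higher at 48 h, while at 72 h 10 were lower and 8 higher, and the difference was negative in 8 and positive in 3, which is 28.2% against 16.2% of all genes. Trib3 was lower at 48 h (-1.26, edgeR adjusted p 4.83e-08) and at 72 h (-0.62, edgeR adjusted p 8.08e-06), and its difference from myoblasts, 0.11, was not called (edgeR adjusted p 0.558). Greb1 was at -3.44 and -2.87, with a difference of -0.07 (edgeR adjusted p 0.913). Mitochondrially encoded genes were higher at 48 h in 12 of 13 cases, and the difference was negative in 12 and positive in 0. That of mt-Nd5, -0.53, had an edgeR adjusted p of 0.00151 and was not called against fused myotubes alone.

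**Figure D5:**
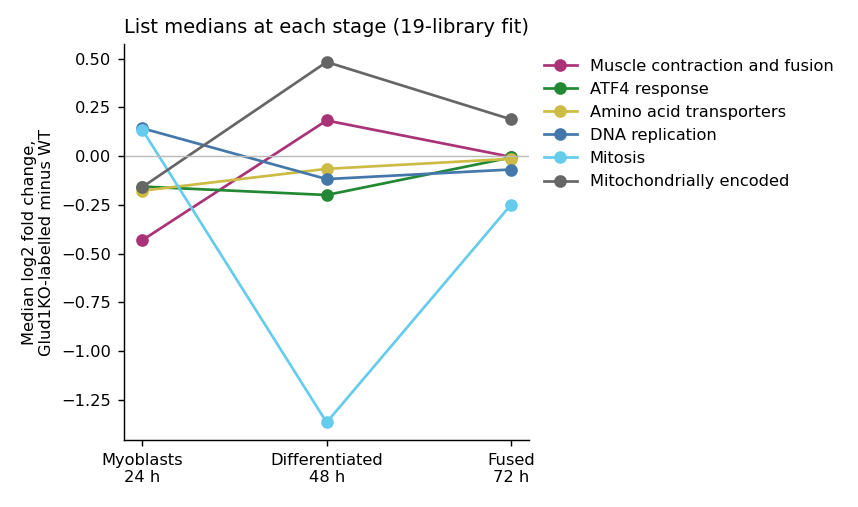
Median log2 fold change, Glud1KO-labelled minus WT, of 6 gene lists at 24 h, 48 h and 72 h, from the fit of all 19 libraries. Lines join the medians of a list. The muscle list lies lowest at 24 h and above 0 at 48 h, and the mitosis list lies above 0 at 24 h and at -1.37 at 48 h.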

How the data were processed

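Poly-A RNA of 6 myoblast libraries was sequenced by the authors on Illumina TruSeq mRNA libraries, per the labels' protocols. The submitters' processing notes list bcl2fastq 2.20, fastp 0.20.0, kallisto 0.46.1, edgeR 3.36 and the build GRCm38 (patch 6). The deposited values are the authors' estimated counts and TPM per transcript, with the transcript's effective length. Whether counting used the strand is not given in the sources used here.

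Estimated counts were summed over GENCODE M21 genes (121018 of 121843 transcripts matched, and the 825 others held 0.255% to 0.283% of counts) and rounded. The 13325 genes that passed filterByExpr entered edgeR's quasi-likelihood test (version 4.0.16, R 4.3.3) on the 6 libraries, without covariates, after TMM scaling. DESeq2 1.42.0 served as an alternative test. The stage difference was fitted on all 19 libraries as the effect in myoblasts minus its mean at the 2 later stages. A floor of 3 counts per library bounds folds against 0 and covers counting error only, since reads carry no molecular identifiers. On simulated data over 13213 genes for this comparison, 36 of 50 genes changed 1.25-fold, 36 of 50 changed 1.5-fold, 40 of 50 changed 2-fold and 47 of 50 changed 3-fold were recovered, with 18 unchanged genes called.

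Named genes are the 10 largest rises and 10 largest falls with a mean of at least 1 CPM in the higher group and groups that do not overlap (uninformative symbols left out), and the 5 largest of each among genes of at least 50 CPM. To these come up to 4 called members per gene list and direction, 12 genes of interest, and 5 stage differences per sign. Acta1, Actc1, Ttn, Des, Mef2c, Mymk, Mymx, Chrna1, Ncam1, Ube2c, Ddit3, Nupr1, Cth, Aars, Atf4, Asns, Psat1, Phgdh, Slc1a5, Slc38a1, Gbp8, Gbp11, Psmb9, Tap1, Irf1, Lrrc8b, Lrrc8c, Lrrc8d, Rgs5, Notch3, Cspg4, Acta2, Mbp, Esr1, Mstn, Tgfb1, Igf1r, Ly6a, Cd34, Ldb3 and Tnnc1 were chosen after their values were seen. Members and lists were chosen with earlier results of these data known. A list share above that of all genes can thus come in part from the choice, and is not a test. Promoters come from RefSeq (27025 genes). Alternatives were other scalings, filters and tests, length and GC corrections, the replicate number as a block, and each myoblast library left out. Libraries of the later stages were always kept. Some members of the gene lists are counted but not reported here by name.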

Additional observations from a re-analysis of the deposited data

Results flagged for a closer look

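The effect of the label differed between myoblasts and the mean of the later stages in 2448 genes by the edgeR test of that difference, at an adjusted p under 0.05. The genes with the smallest adjusted p in each direction follow, with the difference on the log2 scale and all stage values from the fit of all 19 libraries. In Fmo1, a flavin monooxygenase gene, it was -2.56, from an effect of -2.72 in myoblasts against -0.20 at 48 h and -0.13 at 72 h. Cgnl1 had a difference of -2.04 and was lower at every stage, at -3.13, -1.11 and -1.08. Cyfip2, of the actin-regulating WAVE complex, had a difference of -1.86, Lynx1 of -0.88 and the ankyrin gene Ank1 of -0.67. Tnc, higher in myoblasts by 0.46 and lower at 48 h by a log2 value of -2.75, had a difference of 2.02. Dpysl3 had a difference of 1.17, Prkg2 of 1.16 and the cytokine signal inhibitor gene Socs2 of 1.06. Gbp9 was lower at every stage, at -1.45, -1.57 and -2.96, and its difference was 0.82, which was not called against differentiated myotubes alone.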

How the results depend on the processing

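The count of 2625 called genes was 1747 in the DESeq2 test, 1747 in the fit of all 19 libraries, 789 with the effective length offset, and 1735 (without WT replicate 3) to 2354 (without WT replicate 1) with single libraries left out. It stayed within 1.5 times of 2625 under the other settings. Same-numbered libraries did not deviate together (r 0.019, -0.087 and -0.027), which cannot tell whether they share an animal or culture. With the replicate block 2137 genes were called, and 1 complex I gene in place of 3. The stage difference was called in 2448 genes, in 1085 with the offset, in 1557 against fused myotubes alone (44.2% positive), in 2642 by library size only (68.3% positive), in 2394 with the replicate block, and in 1826 to 2177 with single myoblast libraries left out. Libraries of the later stages were not left out. Total Glud1 changed by -0.2727 on the log2 scale with the offset and by -0.0498 to -0.0169 with single libraries left out. Its short transcript's share fell by 17.2 percentage points by deposited TPM and by 5.12 to 5.51 points with single libraries left out. The share of list members called, 42.9%, was 19.3% with the offset, where the share of all genes went from 19.7% to 5.92%, and 32.44% to 37.98% with single libraries left out (12.8% to 17.4% of all genes). Because the lists were chosen with earlier results known, these shares are descriptions. Dhcr7 (-0.0523) and Eya1 (-0.0024) changed sign with the offset. The cause of these shifts was not tested. Depth limits genes near 3 counts per library, and 3 libraries a group limit every call.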
